A study of Mus musculus with 4 samples.

Results

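Chromatin bound by Ldb1 in total mouse bone marrow was compared with chromatin recovered by control IgG. In this ChIP-seq experiment, an antibody recovers crosslinked DNA fragments held by its target, and 1 end of each fragment is read as a short tag. The regions described are the Ldb1 binding sites that the authors' caller placed on chromosomes 1 to 19: 5081 of the 5170 sites in the deposited Ldb1 list, and of 16252 sites in the 3 lists of the series. Another 73 Ldb1 sites lay on chromosome X and 16 on chromosome M, outside the rule. The same 2 libraries were also compared in fixed bins along the genome, without the site list. The sites were called from these very tags against this IgG library, so the levels at sites are a description and support no test.

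The study used freshly isolated, formaldehyde-fixed, sonicated total bone marrow and 4 libraries, 1 each for Ldb1, Scl/Tal1, Gata1 and control IgG; its stated subject is the part of Ldb1 complexes in erythroid gene activation. The Ldb1 antibody was Santa Cruz sc-11198, which 1 label field spells Lbd1; no catalogue number was listed for IgG. The sources used here do not give strain, sex, age, number of mice, genotype or any treatment. Total marrow mixes many cell types, and a ChIP library holds no marker expression that could check its makeup. Fewer cells with Ldb1 bound and less Ldb1 per cell cannot be told apart. With 1 library a side there was no replicate, and every interval below covers counting error alone. The tags carry no molecular identifiers, so amplified copies of 1 molecule were not separable from independent fragments.

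Ldb1 is a nuclear adaptor that does not bind DNA by itself. It dimerises and holds LIM-domain proteins such as Lmo2, which in erythroid cells join it to the DNA-binding factors Tal1, with its E-protein partners, and Gata1. Complexes of this kind are known from enhancers and locus control regions of erythroid genes, where Ldb1 dimers can bring distant elements together. All positions below are on assembly mm8. Gene names and site sequences are not given, because the reference tables at hand are for GRCm38, a different assembly.

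On chromosomes 1 to 19 the Ldb1 library held 6082958 tags of 25 bases, and 4367422 of them had a distinct position and strand. The IgG library held 7037690 tags of 36 bases, with 5433901 distinct. Levels below are distinct tags per 1000000 distinct tags of chromosomes 1 to 19 (RPM). The 2 libraries differed in tag length and in alignment format, and the part of this in the folds over IgG was not tested.

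Ldb1 tags were concentrated at a small part of the genome. Windows reaching 250 bp to each side of the site centres covered 2517 kb and held 138651 distinct Ldb1 tags, 3.17% of the library (95% interval 3.16 to 3.19). The same windows held 9891 IgG tags, 0.182% (0.178 to 0.186). The Ldb1 level in these windows was 17.4 times that of IgG (17.1 to 17.8). Distinct tags stood at 55.1 per kb for Ldb1 in the windows against 1.76 per kb elsewhere, and at 3.93 against 2.26 per kb for IgG. The IgG library was thus also denser at these sites than in the rest of the genome.

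The enrichment was narrow, and the ratio to IgG stayed slightly above 1 far from the site centres. Tags whose centre lay within 50 bp of the nearest site centre gave a fold over IgG of 33.9 (32.4 to 35.5). From 50 to 100 bp away the fold was 24.3 (23.3 to 25.4), and from 100 to 250 bp it was 9.34 (9.09 to 9.60). It then fell to 2.54 (2.48 to 2.61) at 250 to 500 bp and 1.76 (1.72 to 1.79) at 500 to 1000 bp. Beyond that the decline was slow: 1.31 (1.30 to 1.33) at 2000 to 5000 bp and still 1.12 (1.11 to 1.12) at 20000 to 50000 bp. More than 50000 bp from any site, where 80.02% of Ldb1 tags lay, the ratio was 0.932 (0.931 to 0.934). These distances were compared with IgG only. Away from sites, ratios to IgG also rose across whole megabases with many sites, for all 3 antibodies, as given below. The part of this in the values beyond 2000 bp was not tested.

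The mean Ldb1 profile over all sites was a single symmetric peak. Sites were averaged in genome orientation around the centres set by the caller, so this symmetry does not describe single sites. With 5′ ends moved 61 bp towards the fragment's middle, the Ldb1 signal over IgG had a full width of 131 bp at 50% of its maximum, from -65.5 to 65.1 bp around the centre. Of the net signal within 1000 bp, 43.6% lay within 50 bp of the centre, 77.2% within 250 bp and 88.8% within 500 bp, and 50.3% lay on the left side. The mean Ldb1 level within 50 bp of the centre was 30.1 times that 1500 to 2000 bp away. For IgG this quotient was 1.38.

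**Figure D1:**
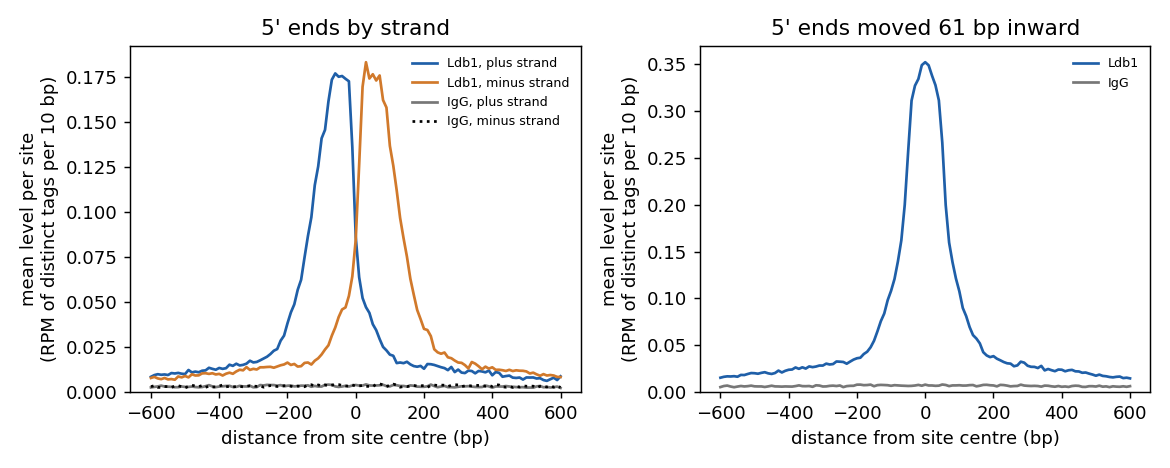
Mean levels of distinct tags per site in bins of 10 bp (RPM, vertical axis) against distance from the site centre (bp), over 5081 Ldb1 sites. Left, 5′ ends by strand: plus-strand ends pile up left of the centre and minus-strand ends right of it, while IgG stays near the axis on both strands. Right, both strands after moving 5′ ends 61 bp inward: Ldb1 forms 1 peak, 131 bp wide at 50% of its maximum over IgG.

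The strands were offset around the centre. Averaged over 3 neighbouring bins of 10 bp, plus-strand 5′ ends were densest 50 bp to the left of the centre and minus-strand ends 40 bp to the right. The caller sets a site where tags switch from plus to minus strand, so this order follows from how sites were made. Within 1000 bp of sites, the correlation between the strands was highest at a lag of 123 bp (r = 0.613, across bases of the site windows of 1 library). At the same lag r was 0.047 for IgG, whose highest value, 0.105, came at 34 bp, close to its tag length of 36 bp. The lag of 123 bp was shorter than the average fragment length of 225 bp that the caller reported, per the file header.

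Without the site list the offset was similar. Over all distinct Ldb1 tags of chromosomes 1 to 19, and with a running mean of 21 bp, pairs of a plus and a minus 5′ end were most frequent at a lag of 114 bp, 3.43 times as frequent as at lags of 500 to 600 bp. More than 2 kb from every Ldb1 site this maximum stood at 104 bp and 1.88 times. IgG had its maximum at 138 bp and 1.70 times. Each library also had a separate spike at its own tag length, without the running mean 2.52 times at 25 bp for Ldb1 and 1.52 times at 36 bp for IgG. An excess of pairs at lags near 100 bp or above over those at long lags was thus present in both libraries.

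**Figure D2:**
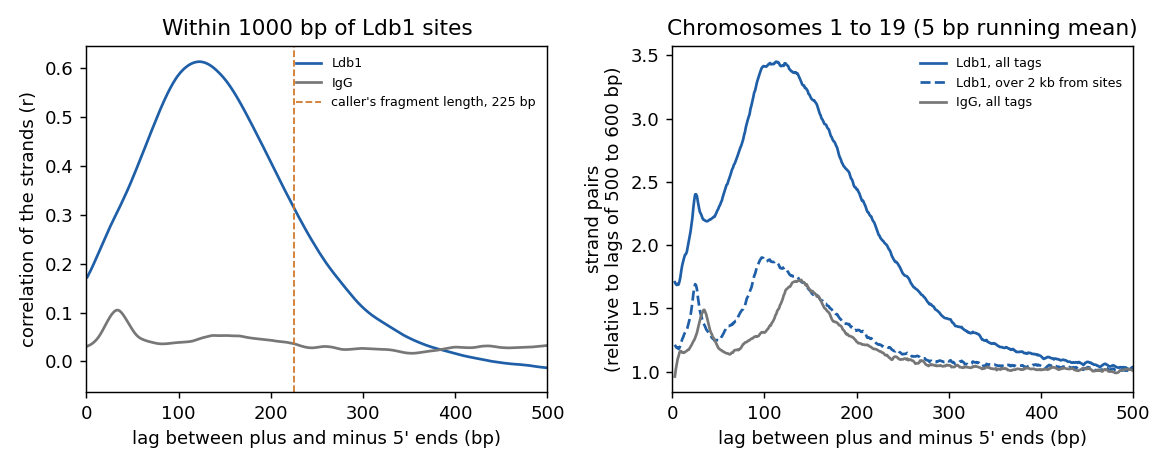
Left, correlation between plus-strand and minus-strand 5′ ends (r) against their lag (bp) within 1000 bp of Ldb1 sites: Ldb1 peaks at 123 bp, left of the dashed line at the caller's fragment length of 225 bp, and IgG stays near or below 0.105. Right, frequency of strand pairs over chromosomes 1 to 19 relative to lags of 500 to 600 bp: Ldb1 reaches 3.43 times at 114 bp, Ldb1 tags over 2 kb from sites 1.88 times, and IgG 1.70 times at 138 bp, beside spikes at the tag lengths of 25 and 36 bp.

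Among strong sites without a close neighbour, single-site offsets lay mostly near the lag of all sites; weaker sites are not covered here. At 858 sites with at least 40 distinct Ldb1 tags within 400 bp and no other Ldb1 site within 1000 bp, the distance between the mean minus-strand and mean plus-strand 5′ end had a median of 120 bp (quartiles 102 to 137, 10th to 90th percentile 80.8 to 152). It was not above 0 at 1 of these sites. The plus strand held a median of 50% of the tags there (quartiles 46.4 to 53.7).

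The sites differed widely in strength. Distinct Ldb1 tags within 250 bp ranged from 9 to 222 per site, with a median of 19 (4.35 RPM) and quartiles of 13 and 33. IgG had a median of 2 tags (0.368 RPM), quartiles of 1 and 3, and a highest value of 129. The 51 strongest sites, 1% of the list, held 5.33% of the Ldb1 tags summed over sites, and the 508 strongest held 30.9%. At the other end, 2676 sites (52.7%) had fewer than 20 Ldb1 tags, and 697 sites had 9 caller tags, the lowest number in the list. Across the 5081 sites, Ldb1 and IgG tags showed little relation (Spearman rho = 0.063; Pearson r of log2 tags plus 1 = 0.075; these sites share 2 libraries).

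The control counts limit what a single site can show. IgG had no tag at 912 sites (17.9%), 1 to 3 tags at 3430 and 4 to 9 at 728. At the 739 sites with 4 or more IgG tags the fold over IgG had a median of 5.29 and quartiles of 3.73 and 10.2. A site was counted as called here when the lower 95% limit of its own ratio to IgG lay over 2. By this rule 3784 of the 5081 sites (74.5%) were called, beside 0.125% of the 3774919 bins of 500 bp with any tag. The sites were themselves selected on these tags, so nothing is read from that contrast. Called sites had a median of 23 Ldb1 and 1 IgG tags, and the other 1297 had 12 and 3. The lower limit lay over 8 at 885 sites and did not exceed 1 at 78.

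Ranked by caller tags and divided into 5 parts of nearly equal size, the sites differed in several features. The fold over IgG was 36.1 (34.6 to 37.6) in the strongest part (31 to 180 caller tags) and 8.17 (7.78 to 8.58) in the weakest (9 to 10). In the strongest part 1013 of 1017 sites were called, against 351 of 1016 in the weakest. Caller tags come from the same Ldb1 library as these folds, so both falls largely follow from the ranking. Mean IgG tags per site were 2.27 in the strongest part and 1.86 to 1.95 in the others. The strand offset went from 124 bp in the strongest part to 118 bp in the weakest. The width at 50% of the maximum was 137 bp in the strongest part, 132 bp in the next and 117 to 120 bp in the other 3.

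Strong sites also had closer neighbours. Another Ldb1 site lay within 20 kb of 61.1% of the strongest part of the list, 47.2% of the next part and 37.6% of the weakest. For all sites this share was 46.1%, and the median distance to the nearest other site was 24.8 kb. Within 1000 bp another site was called beside 583 sites (11.5%), and within 500 bp beside 358. Windows of such close pairs overlap. The library totals, folds and duplicate shares over all sites or parts of the list count each tag once, whereas per-site numbers, and the shares of tags summed over sites, count a tag at each site whose window holds it.

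**Figure D3:**
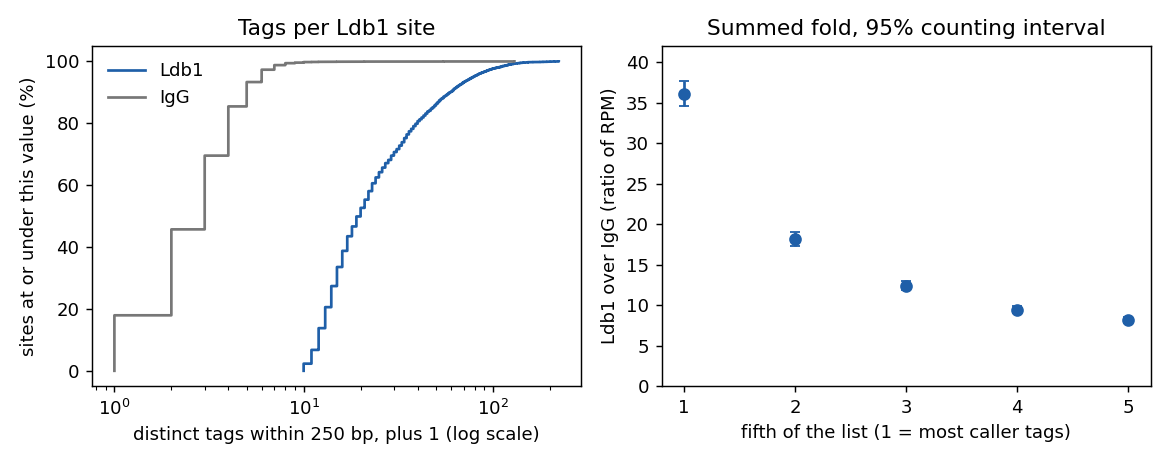
Left, share of the 5081 sites (%) at or under a given number of distinct tags within 250 bp plus 1 (log scale): the Ldb1 median is 19 tags and the IgG median 2. Right, Ldb1 over IgG (ratio of RPM) in 5 equal parts of the list by caller tags, with 95% counting intervals: 36.1 in the strongest part and 8.17 in the weakest.

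The 10 sites with the most distinct Ldb1 tags are given by position. The first, chr16:32429491-32429531, had 222 Ldb1 tags (50.8 RPM) without any IgG tag. Set against a floor of 3 IgG tags, the limit that a count of 0 allows, the ratio there was 92.1. The exact lower 95% limit, which also covers the counting error of the Ldb1 tags, was 74.3. The next, chr11:32145811-32145851, had 211 Ldb1 tags (48.3 RPM) and 1 IgG tag, a ratio of 263 with a counting interval of 46.6 to 10418. These 2 sites held similar numbers of distinct Ldb1 tags, and neither had more than 1 IgG tag.

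The site at chr1:182687631-182687671 had 208 Ldb1 tags but also 9 IgG tags, which gave a fold of 28.8 (14.9 to 63.8). At chr15:38488271-38488311 there were 201 Ldb1 and 6 IgG tags, a fold of 41.7 (18.8 to 115). At chr7:24085971-24086011 there were 198 and 2, a ratio of 123 (33.7 to 1024). The intervals of these folds are wide because of the few IgG tags.

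The other 5 were chr8:108710271-108710331, chr8:87591751-87591791, chr1:134195511-134195551, chr14:68271831-68271871 and chr18:32685571-32685611. They had 176 to 193 Ldb1 tags and 2 to 4 IgG tags each. All 10 sites were 40 or 60 bp wide in the list, and 4 of them had another Ldb1 site within 500 bp. Their per-site strand offsets ran from 113 to 163 bp, and duplicates made up 44.4% to 60.6% of their Ldb1 tags. Each of the 10 had tags on both strands at many positions.

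A few sites at chromosome ends looked different. The 4 sites with 20 or more distinct IgG tags all began before 3.2 Mb of chromosomes 5, 9 and 11, near where the first tags of each chromosome appear. At chr5:3000011-3002591, the widest site of the list, 138 Ldb1 and 129 IgG tags gave a fold of 1.33 (1.04 to 1.71). At chr9:3018771-3019491 there were 58 and 54 tags, a fold of 1.34 (0.906 to 1.97), and at chr11:3003211-3004711 there were 51 and 34, a fold of 1.87 (1.19 to 2.97). These are also the 3 widest sites, at 2580, 720 and 1500 bp. The last of the 4, chr11:3001011-3001291, had 49 and 20 tags and a fold of 3.05 (1.78 to 5.41). None of the 4 was called, their per-site strand offsets were 30.6 to 49.2 bp, and 51.4% to 91.2% of their Ldb1 tags were duplicates. They held 0.208% of the Ldb1 tags summed over sites and 2.37% of the IgG tags.

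Duplicates, meaning tags that repeat the position and strand of another, were more frequent at sites. They made up 40.3% (40.1 to 40.5) of deposited Ldb1 tags in the site windows and 27.7% (27.7 to 27.8) of those elsewhere. For IgG the shares were 27.5% (26.7 to 28.2) and 22.8% (22.7 to 22.8). Part of the IgG excess lay at chromosome-end sites. The window of chr5:3000011-3002591 alone had 793 deposited and 129 distinct IgG tags, beside 3747 IgG duplicates in all site windows. The IgG share was 38.5% in the strongest part of the list and 21.9% to 25.5% in the others, beside the 22.8% elsewhere. An IgG excess was thus not seen in every part of the list. The IgG share without the chromosome-end sites was not computed. A Ldb1 position carried 1.67 tags on average at sites and 1.38 elsewhere. At sites, 59.9% of occupied Ldb1 positions had a single tag, 24.7% had 2 and 2.25% had 5 or more, against 73.3%, 18.8% and 0.647% elsewhere. Leaving out positions with 20 or more copies, the Ldb1 shares were 39.5% at sites and 27.4% elsewhere. With that limit the share was 43.3% in the strongest part of the list and 33.8% in the weakest. Tag density also differed, at 55.1 against 1.76 distinct Ldb1 tags per kb, and its part in the duplicate share was not tested.

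Some positions stacked far beyond the rest. The Ldb1 position with the most copies, the minus strand of chromosome 2 at 91749224, had 1754 copies and lay 71 bp from the centre of the site chr2:91749111-91749171. That site had 1774 Ldb1 tags as deposited but only 14 with a distinct position, against 1 IgG tag. The next, the plus strand of chromosome 12 at 87277478, had 1385 copies among 1386 tags within 250 bp and lay 407641 bp from any Ldb1 site. The stack on chromosome 14 at 39187520 (532 Ldb1 copies) lay in a window where IgG had 8694 tags as deposited and 148 distinct, and IgG had 76 copies at that same position and strand. In the levels given here each such position counts as 1 tag per strand.

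The Ldb1 file sorts tags as U0, U1 and U2, which by the convention of such files means 0, 1 or 2 mismatches. Of the Ldb1 tags, 56.8% were U0, 22.4% U1 and 20.8% U2, whereas 88.9% of IgG tags had no mismatch. Enrichment at sites depended on the class: 4.13% (4.11 to 4.15) of deposited U0 tags lay in site windows, 4.06% (4.02 to 4.09) of U1 and 2.70% (2.67 to 2.73) of U2. Among distinct tags, with each position given the class of its best tag, the shares were 3.78%, 3.09% and 1.44% (1.41 to 1.46). IgG tags with 2 mismatches had 0.269% (0.235 to 0.305) in the same windows, against 0.179% (0.175 to 0.183) of those with none. Among Ldb1 tags the share at sites fell with mismatches, and among IgG tags it did not.

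The fold over IgG ran from 14.6 (13.1 to 16.1) on chromosome 19 to 19.3 (17.7 to 21.1) on chromosome 8, with a median of 17.7 over the 19. The interval of chromosome 19 lay below those of 9 others, chromosomes 1, 2, 3, 6, 7, 8, 10, 15 and 18. Chromosomes 5 and 9 came next, with 15.1 (14.0 to 16.2) and 16.1 (14.8 to 17.5), and these ranks rested on the chromosome-end sites. Without the 4 sites of 20 or more IgG tags, which lie on chromosomes 5, 9 and 11, the fold was 17.8 (16.4 to 19.3) on chromosome 5 and 17.5 (16.1 to 19.2) on chromosome 9. Chromosome 19 has none of these sites and remained the lowest. The share of sites called ran from 70% on chromosome 14 to 78.5% on chromosome 6. The duplicate share of Ldb1 tags ran from 26.7% on chromosome 3 to 30.5% on chromosome 9.

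The number of sites differed more than their strength. Chromosome 19 had 3.52 sites per Mb and chromosome 11 had 3.47 (412 sites), against 1.32 on chromosome 14 and 2.11 over all 19. The share of a chromosome's distinct Ldb1 tags that lay at sites ran from 1.99% on chromosome 14 to 4.61% on chromosome 11. The median caller tag number per site ranged only from 13 to 16. Away from sites, at more than 5 kb, the ratio of Ldb1 to IgG ran from 0.934 (0.928 to 0.939) on chromosome 12 to 1.01 (1.01 to 1.02) on chromosome 11. It was higher on chromosomes with more sites per Mb (Spearman rho = 0.896, Pearson r = 0.893, over 19 chromosomes that share both libraries).

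**Figure D4:**
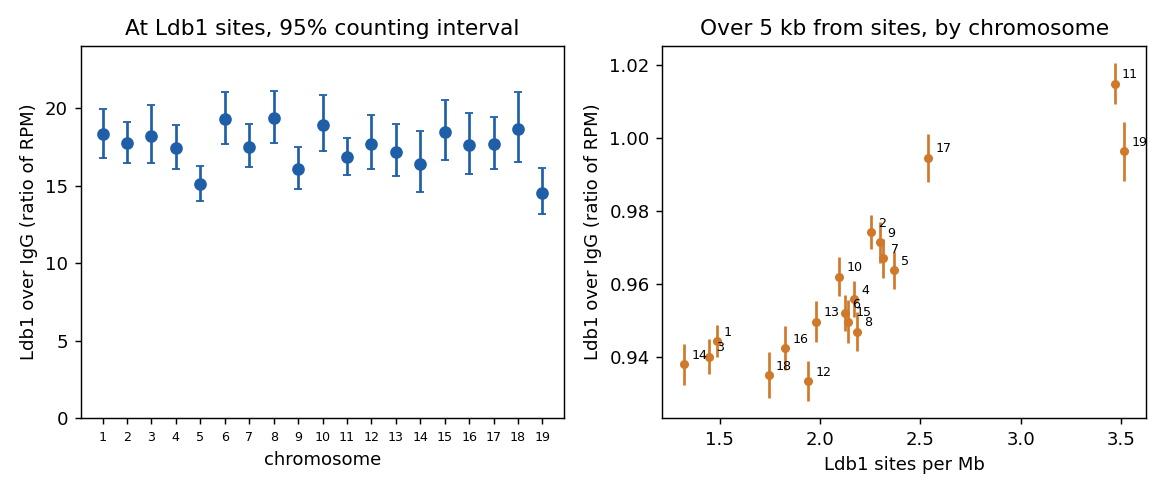
Left, Ldb1 over IgG at sites (ratio of RPM) for chromosomes 1 to 19 with 95% counting intervals, from 14.6 on chromosome 19 to 19.3 on chromosome 8. Right, Ldb1 over IgG more than 5 kb from sites against Ldb1 sites per Mb, 1 point per chromosome with its 95% counting interval: chromosomes 11, 17 and 19 stand highest.

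Fixed bins of 1 kb gave a view that did not start from the list. The 2181729 bins with any tag held a mean of 2.002 Ldb1 and 2.49 IgG tags, and only the 80748 bins with at least 10 tags over both libraries were compared. Of these, 3821 (4.73%) were called for Ldb1 over IgG, by a lower limit of the ratio over 2, and 109 (0.135%) passed the mirror rule for IgG over Ldb1. A site centre lay in 3111 of the called bins (81.4%), and a further 285 had one within 1000 bp. Of the tested bins with a site centre inside, 63.6% were called, against 0.580% of the 73307 tested bins with no site within 1000 bp. The bin of 3242 sites (63.8%) was called; these sites had a median of 21 caller tags and the others 10. The list and the bins come from the same tags, so the overlap is not independent support for either.

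Ldb1 tags were more unevenly spread over bins than IgG tags. The densest 1% of bins by a library's own count held 7.50% of Ldb1 tags and 3.82% of IgG tags, and the densest 0.1% held 2.64% and 0.744%. There were 782 bins with over 50 Ldb1 tags and 111 with over 50 IgG tags. Called bins with a site had a median of 29 Ldb1 and 2 IgG tags.

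Called bins without a site were mostly weak. There were 425 with no site within 1000 bp (11.1% of called bins), with a median of 12 Ldb1 tags and 1 IgG tag. The densest, chr8:24561001-24562000, had 103 Ldb1 and 37 IgG tags, a fold of 3.46 (2.36 to 5.19). It was uneven between the strands, with 82 plus-strand and 21 minus-strand tags. The next, chr9:3031001-3032000, had 61 and 22 tags (3.45, 2.09 to 5.90) and lay at a chromosome end. The other 3 were balanced between the strands and lay 4140 to 12780 bp from a site. At chr13:54703001-54704000 there were 31 Ldb1 and 7 IgG tags (5.51, 2.38 to 14.8), at chr18:67374001-67375000 there were 27 and 5 (6.72, 2.55 to 22.3), and at chr5:65091001-65092000 there were 23 and 2 (ratio 14.3, 3.54 to 125).

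The Ldb1 library was also denser, relative to IgG, in whole megabases that held many sites, after the sites themselves were set aside. In 2378 bins of 1 Mb, counting only tags more than 5 kb from every Ldb1 site, the ratio to IgG had a median of 0.938 (quartiles 0.864 to 1.04). The pooled ratio was 0.883 (0.881 to 0.884) in the 1109 bins without a site and 0.953 (0.9499 to 0.956) in bins with 1 site. It was 1.002 (0.999 to 1.005) with 2 to 3 sites, 1.07 (1.06 to 1.07) with 4 to 7 and 1.14 (1.14 to 1.15) in the 176 bins with 8 or more. The ratio lay over 1 in 82 of the 1109 bins without a site and in 164 of the 176 with 8 or more. Divided by the full bin length, Ldb1 tags went from 1.59 to 1.999 per kb between these classes, and IgG tags from 2.24 to 2.18. That length includes the stretches left out near sites. Both densities are thus understated more in bins with many sites. Densities over the remaining length were not computed, so the IgG values are not read as a fall.

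This rise was not particular to the Ldb1 antibody. In the same bins, Tal1 over IgG went from 0.861 to 1.17 and Gata1 over IgG from 0.864 to 1.21; all 3 ratios share the IgG library. These counts leave out tags near Ldb1 sites only, and Tal1 and Gata1 have other sites of their own. With another antibody as the second library there was no rise: Ldb1 over Tal1 went from 1.03 to 0.978, and Ldb1 over Gata1 from 1.02 to 0.945. With tags within 5 kb of the sites of all 3 lists left out, Ldb1 over IgG went from 0.881 to 1.12, Tal1 over IgG from 0.858 to 1.13 and Gata1 over IgG from 0.861 to 1.16. On the same tags Ldb1 over Tal1 went from 1.03 (1.02 to 1.03) to 0.989 (0.984 to 0.994), and Ldb1 over Gata1 from 1.02 (1.02 to 1.03) to 0.963 (0.959 to 0.967). Tags of Ldb1, Tal1 and Gata1 all had 25 bases, and those of IgG had 36. In the ratios to IgG, tag length and antibody thus cannot be told apart. Base composition and open chromatin were not tested as sources of the difference from IgG.

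**Figure D5:**
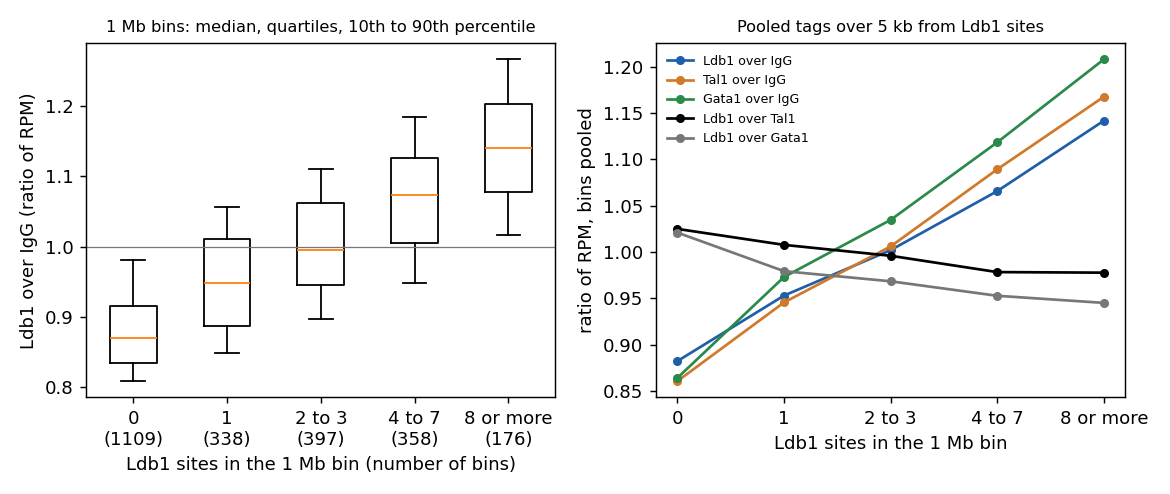
Left, Ldb1 over IgG (ratio of RPM, tags more than 5 kb from Ldb1 sites) in 1 Mb bins by the number of Ldb1 sites they hold; boxes give the median and quartiles and whiskers the 10th and 90th percentiles. Right, ratios of pooled tags in the same bins: the 3 antibodies over IgG rise with the number of sites, from 0.883 to 1.14 for Ldb1, while Ldb1 over Tal1 and Ldb1 over Gata1 fall.

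Set beside the other antibodies at their own lists on the same chromosomes, Ldb1 was intermediate in share of tags and in width. Tags at own sites made up 3.17% of Ldb1, 4.196% of Tal1 and 2.30% of Gata1 distinct tags, with folds over IgG of 17.4, 19.1 (18.7 to 19.4) and 10.7 (10.5 to 10.9). The width was 117 bp for Tal1 and 158 bp for Gata1, with Ldb1 at 131 bp between them. Strand offsets were close, 123, 108 and 117 bp, and each was shorter than the caller's fragment length of 225, 188 and 235 bp. Duplicates at own sites were 40.3%, 45.4% and 15.5% of tags. At the Ldb1 sites themselves, Tal1 had 3.67% of its distinct tags and a fold of 20.2 (19.8 to 20.6), both above Ldb1. Gata1 had 1.76% of its distinct tags there and a fold of 9.64 (9.45 to 9.84). The order of Ldb1 and Tal1 at the Ldb1 sites depended on match class. Exact-match Ldb1 tags alone, against the same IgG tags, had 3.78% there and a fold of 20.8 (20.3 to 21.2), both above Tal1. Tal1 tags were not filtered in this way. Tags with a mismatch made up 43.2% of Ldb1, 19.3% of Tal1 and 7.62% of Gata1 tags. The lists, depths and shares of mismatched tags differ between antibodies. There is 1 library of each, and these differences were not tested.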

How the data were processed

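The authors deposited aligned tags on mm8, per the submitters' processing notes, as 1 line per tag with start and end positions (used as such and counted; the score column was not used); the aligner is not given in the sources used here. The authors' Ldb1 list was made with SISSRs 1.4 and IgG as background, keeping 1 tag per position, per the file headers. The tag count of each site, as deposited, was used to rank sites. Per the file headers, the fold and the p-value of each site were computed by the authors' caller against IgG; neither entered a comparison here.

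Here, tags of chromosomes 1 to 19 were reduced to 1 per position and strand, placed by their centre and counted within 250 bp of site centres or in bins. Ratios carry exact conditional 95% intervals and shares exact Clopper-Pearson 95% intervals. Strand offset used 5′ ends with a running mean of 21 bp; width used bins of 10 bp. Code was tested on simulated data and run with scipy 1.17.1, pandas 2.3.3, numpy 2.4.6 and Python 3.11.15. Depth was 4367422 distinct Ldb1 and 5433901 IgG tags.

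The regions, measures and alternatives were chosen with earlier results of these data known. Named sites are the 10 with the most distinct Ldb1 tags, those with the lowest ratio among sites with at least 20 IgG tags, the 3 widest and the 5 densest called bins without a site within 1000 bp; stacked positions were chosen after their values were seen. Genes of an erythroid list were not assigned to sites, since an annotation of mm8 was not used here. Alternatives covered duplicates, windows, bins, scaling, match class and parts of the list.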

Additional observations from a re-analysis of the deposited data

Results flagged for a closer look

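Chromosomes X, Y and M were outside the comparison. Ldb1 tags exceeded IgG at the sites of chromosome X and over the whole of chromosomes Y and M, but not over the whole of chromosome X. At the 73 Ldb1 sites of chromosome X, 1721 distinct Ldb1 and 114 IgG tags gave a fold of 18.9 (95% interval 15.7 to 23.1), within the range of the 19 autosomes. Over the whole of chromosome X the ratio was 0.854 (0.850 to 0.859). On chromosome Y, where no site was called, 739 distinct Ldb1 and 34 IgG tags gave a ratio of 27.3 (19.3 to 39.7). On chromosome M the Ldb1 library had 601 distinct tags, 425 of them within 250 bp of the 16 sites, and IgG had none. Against a floor of 3 IgG tags in the library, the ratio on chromosome M was 251. The exact lower 95% limit, which also covers the counting error of the Ldb1 tags, was 203.7. These ratios are scaled by the distinct tags of all chromosomes, not of chromosomes 1 to 19 alone. The libraries came in different alignment formats; the part of this in the values for chromosomes Y and M was not tested.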

How the results depend on the processing

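Of 60 alternative values for 10 results, 25 stayed within the counting interval (within 1.5 times for a count, within 10 bp for an offset or width), 31 moved and 4 reversed. Without positions of 20 or more copies, and for the ratio away from sites, the alternatives were chosen after seeing the data. No paired analysis was possible because there was only 1 library per antibody; leaving out a replicate was likewise not possible. Few IgG tags per site limit single folds, as the interval of 46.6 to 10418 at the second site shows.

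With all tags as deposited, the share at sites was 3.82%, the fold 19.7, the lowest and highest chromosome folds 12.0 (chromosome 5) and 23.5 (chromosome 2), the called 1 kb bins 10159 (3331 in the mirror) and the width 118 bp. Windows of 100 bp gave 2.20%, 28.8, 23.95 and 31.97, and windows of 500 bp gave 3.57%, 10.6, 8.66 and 12.1, for the share, the fold and the lowest and highest chromosome. Moving 5′ ends inward gave a share of 3.195%. The fold was 17.8 without the 4 sites with 20 or more IgG tags and 18.2 when scaled by tags away from sites. Exact-match Ldb1 tags alone gave a share of 3.78% and, against IgG tags of every match class, a fold of 20.8. Bins of 5 kb gave 2023 calls and a lower limit over 4 gave 1624. The weaker 50% of the list had a width of 118 bp. The duplicate share at sites was 41.8% within 100 bp, 39.6% within 500 bp, 39.9% without the 4 sites, 29.7% for exact-match tags and 39.5% without positions of 20 or more copies. Away from sites, the ratio in megabases with 8 or more sites divided by that in megabases with none was 1.29. It was 1.33 with all tags, 1.26 beyond 20 kb and 1.42 with exact-match Ldb1 tags against IgG tags of every match class. It was below 1 with Gata1 (0.926) or Tal1 (0.954) in place of IgG. Beyond 5 kb from the sites of all 3 lists these values were 1.27 for IgG, 0.941 for Gata1 and 0.964 for Tal1; the cause was not tested.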

Other observations

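The megabases with the most Ldb1 sites were chr8:125000001-126000000 with 29, chr10:79000001-80000000 with 26 and chr6:120000001-121000000 with 20. Away from the sites, by more than 5 kb, their Ldb1 to IgG ratios were 1.28 (95% interval 1.20 to 1.36), 1.43 (1.34 to 1.51) and 1.26 (1.18 to 1.34).

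The bins in which IgG exceeded Ldb1 included a block on chromosome 1. Of the 109 such bins, 5 lay in chr1:24566001-24571000 and held 371 distinct IgG tags and 5 Ldb1 tags; this block was chosen after its values were seen. The bin chr1:24567001-24568000 alone had 102 IgG and 5 Ldb1 tags, a ratio of 0.061 (0.019 to 0.147). Among all of them, 98 held no Ldb1 tag, and none had a Ldb1 site within 1000 bp. On chromosome M the imbalance was the other way, with 601 distinct Ldb1 tags and no IgG tag; whether the 2 are linked was not tested.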
